A study of Homo sapiens with 48 samples.

Results

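The aryl hydrocarbon receptor (AHR) and 7 genes tied to it, CYP1A1, CYP1B1, TIPARP, AHRR, ARNT, ARNT2 and ALDH3A1, were followed across RNA-seq libraries of H1975, a non-small cell lung cancer cell line that carries mutated EGFR. They were taken by symbol from a table of raw read counts, which held all 8 genes among 27978 symbols, and 7 of the 8 passed the count filter. The 48 libraries fell into 16 groups of 3, described in the labels as biological replicates. The labels do not say that the replicates came from separate cultures, so p-values measure the spread between these libraries. In 8 groups, cells received gefitinib, an EGFR kinase inhibitor, together with CKI, the herbal preparation compound kushen injection, or with YFSJ, a preparation known here by its letters. These were CKI at 1 or 2 mg/mL, with gefitinib at 50 or 75 µM, and YFSJ at 2.5 or 5 mg/mL, with gefitinib at 50 or 75 µM. CKI alone and YFSJ alone at the same doses made 4 groups, and gefitinib alone at 50 or 75 µM made 2. These 14 groups were treated for 24 h. Untreated cells at 24 h and at 0 h made the last 2 groups. The cells were cultured in RPMI-1640 with 10% fetal bovine serum, which all groups share. All libraries come from 1 cell line.

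AHR is a ligand-activated transcription factor of the bHLH-PAS family. It waits in the cytosol in a complex with the chaperone HSP90, moves to the nucleus when it binds a ligand, pairs with ARNT, and binds DNA at dioxin response elements. Its targets include the monooxygenases CYP1A1 and CYP1B1, which oxidise polycyclic aromatic hydrocarbons and oestrogens. TIPARP, an ADP-ribosyltransferase, and AHRR, a repressor that competes for ARNT, are both targets of AHR and restrain it. ARNT2 is a close relative of ARNT, and ALDH3A1 is an aldehyde dehydrogenase that AHR ligands induce in several tissues.

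The promoter windows of CYP1A1, TIPARP and AHRR are shown because these genes are described as AHR targets and moved in the treated libraries. Each window is 300 bases of RefSeq sequence on GRCh38.p14, from 250 bases before an annotated start to 50 after it, in the direction of transcription. Capitals mark the dioxin response element core, GCGTG, or CACGC where it lies on the opposite strand. The window of CYP1A1 is chr15:74725479-74725778 on the minus strand, that of TIPARP is chr3:156674340-156674639 on the plus strand, and that of AHRR is chr5:321464-321763 on the plus strand.
CYP1A1: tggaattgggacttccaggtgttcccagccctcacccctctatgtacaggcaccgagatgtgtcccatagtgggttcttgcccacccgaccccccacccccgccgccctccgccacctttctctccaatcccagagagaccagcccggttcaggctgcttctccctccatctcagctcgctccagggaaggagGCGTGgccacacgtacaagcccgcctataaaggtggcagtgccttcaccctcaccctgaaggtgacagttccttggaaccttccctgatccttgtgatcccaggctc
TIPARP: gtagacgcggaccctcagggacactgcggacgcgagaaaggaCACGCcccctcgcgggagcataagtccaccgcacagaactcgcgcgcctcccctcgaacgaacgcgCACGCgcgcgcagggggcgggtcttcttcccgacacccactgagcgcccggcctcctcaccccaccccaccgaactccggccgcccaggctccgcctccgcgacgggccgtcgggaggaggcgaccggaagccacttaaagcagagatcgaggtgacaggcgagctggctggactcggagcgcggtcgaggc
AHRR: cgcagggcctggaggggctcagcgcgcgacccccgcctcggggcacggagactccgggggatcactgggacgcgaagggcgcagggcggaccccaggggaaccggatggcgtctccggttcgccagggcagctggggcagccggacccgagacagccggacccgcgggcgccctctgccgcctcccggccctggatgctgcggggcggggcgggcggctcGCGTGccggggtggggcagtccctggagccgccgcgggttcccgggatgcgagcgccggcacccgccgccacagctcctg
Both strands were searched for the core. Counted from the start site, the first base of the core lay at -57 in the CYP1A1 window, at -208 and -142 in the TIPARP window and at -30 in the AHRR window. The AHRR core also read as the longer form TNGCGTG, where N is any base. A second AHRR window held 2 cores, the AHR window held 1 at position 38, and the ARNT window and the remaining TIPARP windows held none. In all, 5 members had 8 windows, and 5 of those 8 held the core. Across all 35116 windows of this length, 36.54% held GCGTG and 5.51% held TNGCGTG, so a match by itself is common. It describes the letters and not a bound site.

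Library totals ran between 16428398 and 26264162 counts. A pair of library features touches the results. ALB, the gene of the liver protein albumin, had 2581 to 3557 counts in 10 libraries and 0 to 8 counts in the other 38. The 10 libraries are all 3 with YFSJ 2.5 mg/mL, all 3 with CKI 2 mg/mL and gefitinib 75 µM, replicates 1 and 3 of CKI 2 mg/mL with gefitinib 50 µM, and replicates 2 and 3 of CKI 1 mg/mL with gefitinib 75 µM. The 15 liver markers summed to between 263 and 353 CPM in those 10 and to between 49.0 and 105 CPM in the others. No marker was at 0 in all libraries. Only SERPINA1 and CYP2E1 had a median of at least 1 CPM, and SERPINA1 had 43.7 to 96.2 CPM throughout. APOB, FGA and HP had 362 to 521, 129 to 190 and 204 to 295 counts in the 10. In the other 38 they had at most 1, 1 and 5 counts. CYP1A2, the liver relative of CYP1A1 and itself an AHR target, reached at most 17 counts in any library. It had 10 to 17 counts in the 10 libraries with over 1000 ALB counts. In the groups that mix both kinds of library, the other library had 1 count (CKI 2 mg/mL with gefitinib 50 µM) or 0 (CKI 1 mg/mL with 75 µM). The second feature concerns distance over all genes. In 15 of the 48 libraries, the mean of another group was nearer than that of the other 2 libraries of the same group. A mean of 3 libraries holds less noise than a mean of 2, so this count favours other groups where groups are alike. Some margins were small, as in replicate 1 of gefitinib 50 µM (0.299, against 0.305 to its own group). Replicate 3 of YFSJ 5 mg/mL with gefitinib 50 µM was nearest to gefitinib 50 µM alone (root mean square log2 difference of 0.277, against 0.364 to its own group). Replicate 3 of untreated cells at 0 h was nearest to untreated cells at 24 h (0.352, against 0.546 to its own group). Of the 8 lung markers, 4 had a median of at least 1 CPM, and KRT7, an epithelial keratin, had a median of 1445 CPM. NKX2-1, the lung lineage factor, was at 23.3 to 76.5 CPM, whereas the surfactant genes SFTPB, SFTPC and SFTPA1 had at most 6, 4 and 4 counts.

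In untreated cells the members differed widely in abundance. Per kilobase of the longest transcript, untreated cells at 24 h had 52.8 CPM (reads relative to the size of each library) of CYP1B1 and 21.8 CPM of AHR. TIPARP followed with 8.42, ARNT with 6.31 and AHRR with 2.66 CPM per kilobase. ARNT2 had 0.592 and CYP1A1 had 0.361 CPM per kilobase. CYP1A1, the target most often used as a readout of the receptor, was thus the scarcest of the 7 members that could be tested. Time in culture was tested between untreated cells at 24 h and at 0 h, where 1 of 7 members fell and none rose, against 14.4% of all 15789 tested genes that fell (adjusted p under 0.05, edgeR quasi-likelihood test). That member was TIPARP, with 39.7, 35.0 and 30.9 CPM at 24 h, against 62.6, 53.9 and 65.7 CPM at 0 h. The groups did not overlap, and the log2 fold change was -0.79 ± 0.13 (SE, adjusted p = 5.17e-05), or -0.73 (adjusted p = 0.000136) without replicate 3 of the 0 h group. CYP1A1 had 1.08, 0.580 and 1.25 CPM at 24 h, against 0.854, 0.968 and 0.884 CPM at 0 h. Only 9 to 23 reads stood behind each CYP1A1 value at 24 h, which limits the precision of every fold change taken against that group. In RNA from whole cultures, fewer cells that express a gene and less of its RNA per cell cannot be told apart.

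CYP1A1 rose most with CKI. It had 27.9, 29.2 and 27.0 CPM with CKI 1 mg/mL and 15.98, 22.8 and 17.0 CPM with CKI 2 mg/mL, against 1.08, 0.580 and 1.25 CPM in untreated cells at 24 h. Every CKI library lay far above every untreated one, and the log2 fold changes were 4.82 ± 0.23 at 1 mg/mL (adjusted p = 9.85e-21) and 4.23 ± 0.23 at 2 mg/mL (adjusted p = 2.74e-19). These correspond to a 28.2-fold and an 18.8-fold rise. YFSJ gave 7.73, 6.67 and 7.02 CPM at 2.5 mg/mL and 11.7, 11.1 and 11.3 CPM at 5 mg/mL. Its log2 fold changes against untreated cells were 2.84 ± 0.25 (adjusted p = 6.73e-11) and 3.51 ± 0.24 (adjusted p = 1.01e-14). The smallest of these rises came with gefitinib alone, where CYP1A1 had 1.92, 3.03 and 1.74 CPM at 50 µM and 2.48, 2.09 and 1.96 CPM at 75 µM. The log2 fold changes were 1.17 ± 0.30 (adjusted p = 0.000822) and 1.13 ± 0.30 (adjusted p = 0.00138), and neither group overlapped the untreated libraries.

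CYP1B1 was abundant before treatment and rose with each agent alone. Gefitinib gave 838, 823 and 904 CPM at 50 µM, against 284, 289 and 259 CPM in untreated cells at 24 h, and the log2 fold change was 1.62 ± 0.11 (adjusted p = 2.84e-17). At 75 µM it gave 795, 784 and 808 CPM, or 1.52 ± 0.11 on the log2 scale (adjusted p = 2.28e-16). These libraries reached the range seen with CKI 1 mg/mL, where CYP1B1 had 812, 747 and 871 CPM (log2 fold change 1.55 ± 0.11, adjusted p = 2.51e-15). CKI 2 mg/mL gave less, at 506, 499 and 531 CPM (log2 fold change 0.89 ± 0.11, adjusted p = 2.08e-09). With YFSJ the values were 593, 638 and 641 CPM at 2.5 mg/mL and 663, 712 and 795 CPM at 5 mg/mL, for log2 fold changes of 1.17 ± 0.11 and 1.38 ± 0.11 (adjusted p = 1.56e-10 and 6.22e-13). Gefitinib, which moved CYP1A1 by 2.25-fold at 50 µM, moved CYP1B1 by 3.08-fold at that dose.

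TIPARP rose most with CKI 2 mg/mL, to 155, 116 and 155 CPM, against 39.7, 35.0 and 30.9 CPM in untreated cells at 24 h. The log2 fold change was 2.01 ± 0.13 (adjusted p = 2.05e-16). At CKI 1 mg/mL it had 97.6, 80.0 and 95.7 CPM (log2 fold change 1.37 ± 0.13, adjusted p = 4.44e-11), so the higher CKI dose carried the higher TIPARP level, opposite to both CYP1 genes. YFSJ gave 59.3, 65.9 and 64.8 CPM at 2.5 mg/mL and 68.6, 81.1 and 79.7 CPM at 5 mg/mL, with log2 fold changes of 0.85 ± 0.13 and 1.12 ± 0.13 (adjusted p = 4.9e-05 and 1.09e-07). Gefitinib gave 49.8, 47.5 and 61.6 CPM at 50 µM and 53.6, 48.3 and 49.8 CPM at 75 µM, with log2 fold changes of 0.59 ± 0.13 and 0.52 ± 0.13 (adjusted p = 0.000218 and 0.000946). Untreated cells at 0 h averaged 60.8 ± 6.09 CPM of TIPARP (SD, n = 3). Their libraries overlapped those of YFSJ 2.5 mg/mL and gefitinib 50 µM and lay above those of gefitinib 75 µM, and these differences were not tested.

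Among the single agents, AHRR, the repressor, was highest with gefitinib. It had 45.2, 54.4 and 39.4 CPM with gefitinib 50 µM and 47.8, 44.5 and 50.3 CPM with 75 µM, against 12.8, 16.04 and 16.3 CPM in untreated cells at 24 h. The log2 fold changes were 1.63 ± 0.13 (adjusted p = 2.36e-14) and 1.66 ± 0.13 (adjusted p = 1.23e-14). CKI gave 24.0, 25.2 and 24.4 CPM at 1 mg/mL and 25.5, 24.3 and 24.3 CPM at 2 mg/mL, with log2 fold changes of 0.71 ± 0.13 and 0.72 ± 0.13 (adjusted p = 5.06e-05 and 1.46e-05). YFSJ gave 25.1, 25.5 and 24.2 CPM at 2.5 mg/mL and 34.0, 26.6 and 26.6 CPM at 5 mg/mL, with log2 fold changes of 0.73 ± 0.13 and 0.95 ± 0.13 (adjusted p = 0.000538 and 2.58e-06). No library of gefitinib alone overlapped any library of a preparation alone. AHRR lies beside PDCD6, which had 38.3 to 98.9 CPM, and EXOC3-AS1, which had 3.76 to 17.1 CPM. How reads were counted is not given, so reads shared between neighbouring genes cannot be separated. The antisense genes at the other loci were low, with at most 33 counts of CYP1B1-AS1 and 61 counts of TIPARP-AS1 in any library.

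**Figure D1:**
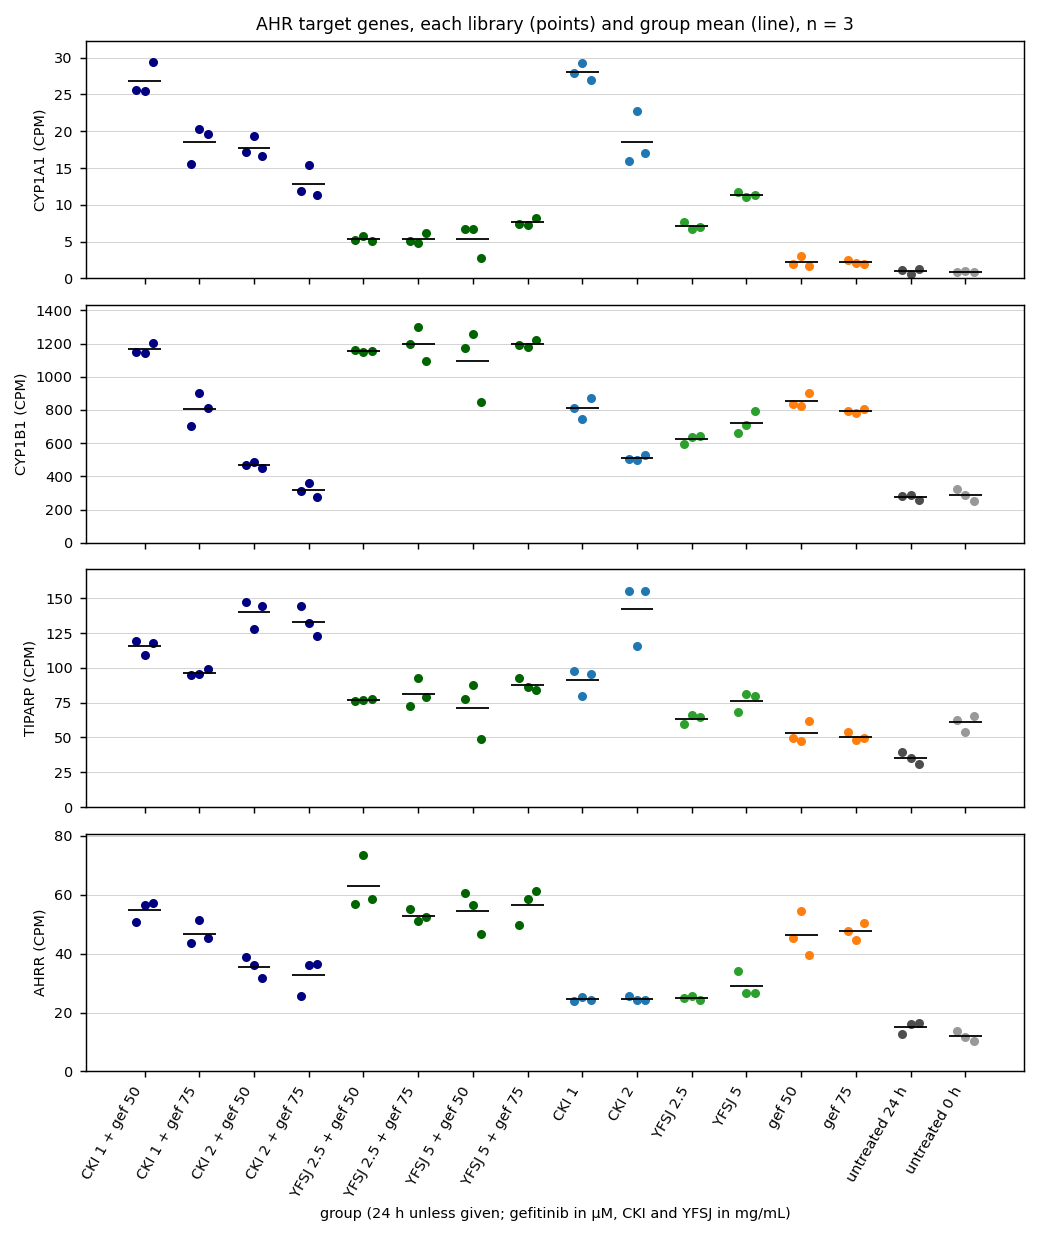
CYP1A1, CYP1B1, TIPARP and AHRR in CPM (y axis, linear from 0) in each of the 48 libraries (points) with the mean of each group of 3 (line), for all 16 groups on the x axis. CYP1A1 and TIPARP are highest in groups with CKI, whereas CYP1B1 and AHRR are highest in the 4 combinations with YFSJ and in CKI 1 mg/mL with gefitinib 50 µM. In these combinations AHRR did not pass against gefitinib alone at the same dose.

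Counted over the members, 6 of 7 rose with gefitinib 50 µM and 6 of 7 with 75 µM, where 27.6% of all genes tested rose at either dose. With CKI 1 mg/mL 5 of 7 rose and 1 fell, against 13.2% and 14.7% of all genes, and with CKI 2 mg/mL 5 rose and 1 fell, against 24.1% and 27.1%. With YFSJ 2.5 mg/mL 4 of 7 rose, against 2.01% of all genes, and with 5 mg/mL 5 rose, against 4.28%. No member fell with gefitinib or YFSJ alone. The median log2 fold change of the 7 was 0.95 with YFSJ 5 mg/mL and 0.72 with CKI 2 mg/mL, while the medians over all genes were -0.01 and -0.01. All comparisons with untreated cells at 24 h share the same 3 control libraries. The 4 targets passed the test in 55 of the 56 pairs of a target and a treated group, and the remaining pair was CYP1B1 with CKI 2 mg/mL and gefitinib 75 µM. All 55 were rises. The share of all genes that rose depended on the group, between 2.01% with YFSJ 2.5 mg/mL and 29.6% with CKI 2 mg/mL and gefitinib 75 µM. All libraries with YFSJ 2.5 mg/mL were among those with over 1000 ALB counts. With a term for those libraries in the fit, the call was lost for TIPARP (log2 fold change 0.73, adjusted p = 0.0752) and for AHRR (0.67, adjusted p = 0.118) with YFSJ 2.5 mg/mL, while CYP1A1 and CYP1B1 kept theirs.

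**Figure D2:**
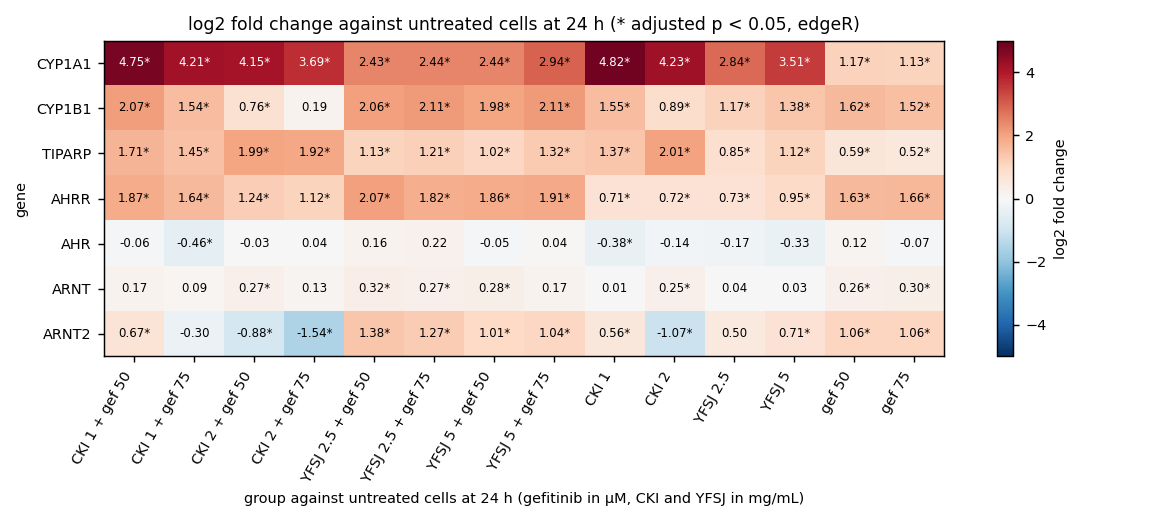
Log2 fold change of each of the 7 tested members (rows) in the 14 treated groups (columns) against untreated cells at 24 h, with an asterisk where the adjusted p was under 0.05 (edgeR). The rows of the 4 target genes are positive throughout, with a value of 0.19 for CYP1B1 in CKI 2 mg/mL with gefitinib 75 µM, whereas AHR stays between -0.46 and 0.22 and ARNT2 takes both signs.

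The receptor itself moved little. Group means of AHR lay between 110 and 177 CPM, and untreated cells at 24 h had 171, 145 and 139 CPM. With CKI 1 mg/mL it had 116, 111 and 125 CPM, so the groups did not overlap, and the log2 fold change was -0.38 ± 0.12 (adjusted p = 0.0152). That call rested on single libraries, since the adjusted p was 0.122 without replicate 1 of the untreated group and 0.0664 without replicate 2 of CKI 1 mg/mL, and it was 0.0962 with scaling by library size alone. In CKI 1 mg/mL with gefitinib 75 µM, AHR had 105, 115 and 110 CPM, with a log2 change of -0.46 ± 0.12 (adjusted p = 0.00101, or 0.0749 with library size scaling). In the other 12 treated groups AHR did not pass the test against untreated cells at 24 h.

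ARNT, the partner of AHR, spanned 30.9 to 38.6 CPM over the 16 group means. With gefitinib 75 µM it had 33.7, 41.1 and 39.1 CPM, against 32.8, 30.0 and 29.7 CPM in untreated cells at 24 h (log2 fold change 0.30 ± 0.09, adjusted p = 0.00315). Gefitinib 50 µM gave 37.0, 35.0 and 38.8 CPM (log2 fold change 0.26 ± 0.09, adjusted p = 0.0101), a call that became 0.052 without replicate 3 of that group. CKI 2 mg/mL gave 36.9, 33.1 and 40.1 CPM (log2 fold change 0.25 ± 0.09, adjusted p = 0.0139), and the adjusted p was 0.116 without its replicate 3 and 0.0583 without replicate 3 of the untreated group. With CKI 1 mg/mL and both YFSJ doses the log2 fold changes were 0.01, 0.04 and 0.03, none past the test.

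ARNT2 was the member whose direction depended on the agent and its dose. Gefitinib raised it to 8.71, 8.52 and 7.66 CPM at 50 µM and 9.43, 7.67 and 7.78 CPM at 75 µM, against 4.02, 3.80 and 4.07 CPM in untreated cells at 24 h. Both log2 fold changes were 1.06 ± 0.15 (adjusted p = 4.68e-08 and 5.16e-08). CKI 1 mg/mL also raised it, to 6.60, 5.79 and 5.21 CPM (log2 fold change 0.56 ± 0.15, adjusted p = 0.00363). With CKI 2 mg/mL it fell to 1.82, 1.95 and 1.89 CPM (log2 fold change -1.07 ± 0.17, adjusted p = 1.23e-06), below every untreated library. YFSJ 5 mg/mL gave 5.79, 6.34 and 7.39 CPM (log2 fold change 0.71 ± 0.15, adjusted p = 0.00169), and YFSJ 2.5 mg/mL gave 5.34, 5.45 and 6.06 CPM, which missed the threshold (0.50 ± 0.15, adjusted p = 0.0524). ALDH3A1 could not be tested. It had 0 to 8 counts in every library, and a count of 3, the limit that 0 counts allow, corresponds to 0.107 to 0.193 CPM across libraries, a limit that covers counting error only.

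**Figure D3:**
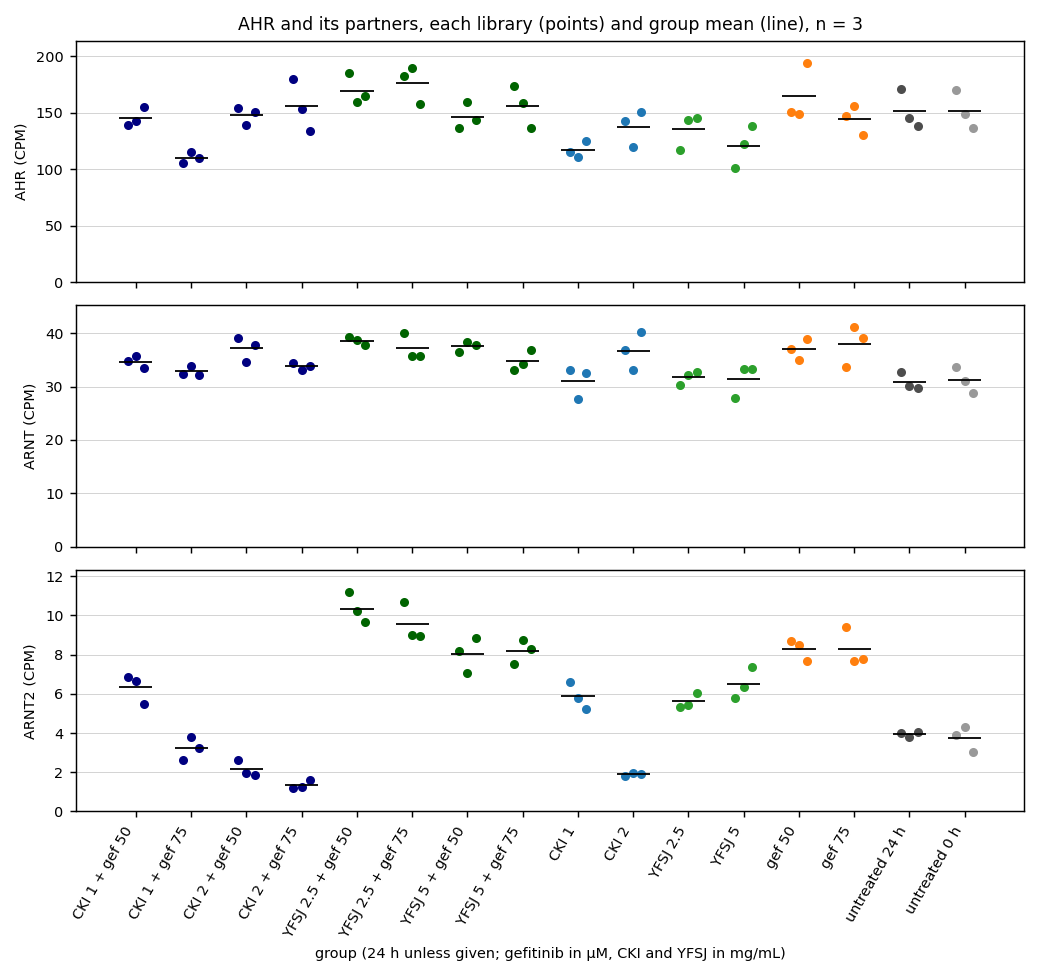
AHR, ARNT and ARNT2 in CPM (y axis, linear from 0) in each library (points) with the mean of each group of 3 (line), for all 16 groups. The AHR and ARNT means stay within 110 to 177 and 30.9 to 38.6 CPM, while the ARNT2 means run between 1.36 CPM in CKI 2 mg/mL with gefitinib 75 µM and 10.3 CPM in YFSJ 2.5 mg/mL with gefitinib 50 µM.

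The dose of each single agent was compared next. Between CKI 2 and 1 mg/mL, 2 of 7 members were higher and 3 lower at the higher dose, against 15.1% and 17.6% of all genes. CYP1A1 and CYP1B1 were lower at 2 mg/mL (log2 fold changes -0.59 ± 0.16 and -0.66 ± 0.10, adjusted p = 0.00355 and 3.99e-06), and so was ARNT2 (-1.63 ± 0.16, adjusted p = 2.13e-10). TIPARP was higher (0.64 ± 0.13, adjusted p = 0.000134), and ARNT too (0.24 ± 0.09, adjusted p = 0.0286, but 0.193 without replicate 3 of CKI 2 mg/mL, 0.0686 without its replicate 1 and 0.211 without replicate 2 of CKI 1 mg/mL). Between gefitinib 75 and 50 µM none of the 7 members passed, where 0.0317% of all genes did, and their log2 differences ran between -0.19 and 0.04. Between YFSJ 5 and 2.5 mg/mL none passed either, where 0.374% of all genes did. CYP1A1 had a log2 difference of 0.67 ± 0.17 there (adjusted p = 0.0869), with no overlap between the libraries. A smaller p came with DESeq2 (0.0427) and with a fit of those 6 libraries alone (0.0157).

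All combinations were also set against untreated cells at 24 h. With CKI 1 mg/mL, 5 of 7 members rose when gefitinib was at 50 µM (27.1% of all genes rose), and 4 rose and 1 fell when it was at 75 µM (29.4% and 30.4% of all genes). With CKI 2 mg/mL, 5 rose and 1 fell with gefitinib 50 µM (27.7% and 30.4%), and 3 rose and 1 fell with 75 µM (29.6% and 32.5%). With YFSJ 2.5 mg/mL, 6 rose at either gefitinib dose (28.8% and 27.6%), and with YFSJ 5 mg/mL 6 rose with 50 µM and 5 with 75 µM (27.5% and 26.4%). CYP1B1 reached its highest levels here, with 1199 ± 103 CPM in YFSJ 2.5 mg/mL with gefitinib 75 µM, 1197 ± 20.7 CPM in YFSJ 5 mg/mL with gefitinib 75 µM and 1165 ± 32.4 CPM in CKI 1 mg/mL with gefitinib 50 µM, against 277 ± 15.7 CPM in untreated cells at 24 h (SD, n = 3 each). In CKI 2 mg/mL with gefitinib 75 µM it had 314, 360 and 278 CPM, near the untreated level (log2 fold change 0.19 ± 0.10, adjusted p = 0.105). The value passed without replicate 3 of that group (0.28, adjusted p = 0.0337) and with library size scaling (0.33, adjusted p = 0.00825). ARNT2 was lowest in the same group, with 1.22, 1.26 and 1.61 CPM (log2 fold change -1.54 ± 0.18, adjusted p = 8.05e-10). All 3 of those libraries had over 1000 ALB counts, and the part of that feature in the result was not tested beyond the term in the fit.

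**Figure D4:**
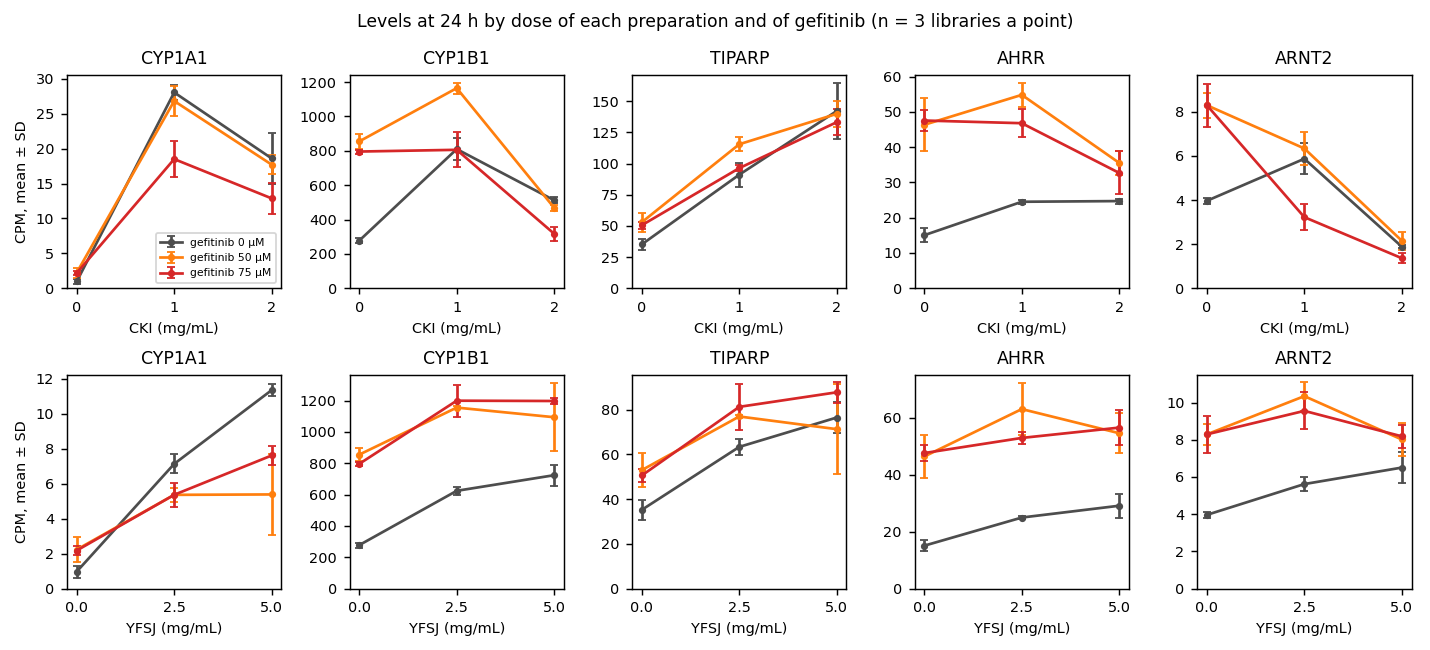
Mean ± SD (n = 3 libraries) of CYP1A1, CYP1B1, TIPARP, AHRR and ARNT2 in CPM at 24 h (y axes, linear from 0) against the dose of CKI (upper row) or YFSJ (lower row) in mg/mL, with 1 line for each gefitinib dose. CYP1B1 with gefitinib 75 µM falls to 317 CPM at CKI 2 mg/mL, whereas TIPARP is highest at CKI 2 mg/mL at every gefitinib dose.

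Adding CKI to gefitinib was then tested against gefitinib alone at the same dose. CYP1A1 rose in all 4 combinations, by 3.58 ± 0.20 with CKI 1 mg/mL and gefitinib 50 µM, 3.08 ± 0.21 with CKI 1 mg/mL and 75 µM, 2.99 ± 0.20 with CKI 2 mg/mL and 50 µM, and 2.56 ± 0.21 with CKI 2 mg/mL and 75 µM (log2, largest adjusted p = 5.26e-14). TIPARP rose in all 4 as well, by 1.12 ± 0.13, 0.93 ± 0.13, 1.40 ± 0.13 and 1.40 ± 0.13 in the same order (largest adjusted p = 2.37e-07). CYP1B1 went both ways. It was 0.45 ± 0.10 higher with CKI 1 mg/mL and gefitinib 50 µM (adjusted p = 0.000867) and 0.02 ± 0.10 apart with 75 µM (adjusted p = 0.915), but with CKI 2 mg/mL it was lower, with log2 fold changes of -0.87 ± 0.11 at 50 µM (adjusted p = 2.74e-09) and -1.33 ± 0.11 at 75 µM (adjusted p = 2.71e-14). In libraries this meant 468, 484 and 453 CPM with CKI 2 mg/mL and gefitinib 50 µM, against 838, 823 and 904 CPM with gefitinib 50 µM alone. ARNT2 fell in all 4, with log2 fold changes of -0.39 ± 0.14, -1.37 ± 0.15, -1.94 ± 0.15 and -2.60 ± 0.17 (largest adjusted p = 0.0253, for CKI 1 mg/mL with 50 µM). That smallest fall did not pass without replicate 3 of the combination (0.16), without replicate 1 or 2 of gefitinib 50 µM (0.0882 and 0.0801), without the filter (0.0618) or with library size scaling (0.133).

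AHRR, high with gefitinib alone, was lower when CKI 2 mg/mL was added. It had 38.7, 36.0 and 31.9 CPM in the combination, against 45.2, 54.4 and 39.4 CPM with gefitinib 50 µM alone (log2 fold change -0.38 ± 0.12, adjusted p = 0.00818). Without the libraries with over 1000 ALB counts this became -0.36 (adjusted p = 0.112), without replicate 3 of the combination -0.31 (0.059), and without replicate 2 of gefitinib 50 µM -0.25 (0.117). At 75 µM it had 25.6, 36.0 and 36.4 CPM, against 47.8, 44.5 and 50.3 CPM with gefitinib alone (-0.54 ± 0.12, adjusted p = 0.000252). AHR was lower only with CKI 1 mg/mL and 75 µM (-0.39 ± 0.12, adjusted p = 0.00943), and its adjusted p was 0.0567 without replicate 2 of gefitinib 75 µM and 0.0815 with library size scaling. Over the 7 members, 3 rose and 1 fell with CKI 1 mg/mL and gefitinib 50 µM (15.5% and 16.2% of all genes), and 2 rose and 2 fell with 75 µM (17.3% in each direction). With CKI 2 mg/mL, 2 rose and 3 fell at 50 µM (26.6% and 27.1%) and likewise at 75 µM (28.8% and 29.4%). Within the 2 combination groups that mix both kinds of library, CYP1A1 had 20.3 and 19.6 CPM in the libraries with over 1000 ALB counts and 15.6 CPM in the other with CKI 1 mg/mL and 75 µM. It had 17.2 and 16.6 CPM in those libraries and 19.3 CPM in the other with CKI 2 mg/mL and 50 µM.

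YFSJ added to gefitinib changed few genes in the whole table, and AHR targets were among them. CYP1A1 rose in all 4 combinations, by 1.26 ± 0.22 with YFSJ 2.5 mg/mL and gefitinib 50 µM (adjusted p = 0.00319), 1.31 ± 0.23 with 2.5 mg/mL and 75 µM (0.00138), 1.27 ± 0.22 with 5 mg/mL and 50 µM (0.00134) and 1.81 ± 0.22 with 5 mg/mL and 75 µM (5.99e-07). CYP1A1 had 7.38, 7.25 and 8.22 CPM in the last of these, against 2.48, 2.09 and 1.96 CPM with gefitinib 75 µM alone, with no overlap. With gefitinib 75 µM, CYP1B1 also rose, by 0.59 ± 0.10 with either YFSJ dose (adjusted p = 0.00144 with 2.5 mg/mL and 0.000354 with 5 mg/mL). TIPARP rose with it, by 0.68 ± 0.13 and 0.80 ± 0.13 (adjusted p = 0.00411 and 0.000125). With gefitinib 50 µM neither gene passed, at log2 fold changes of 0.43 and 0.36 for CYP1B1 and 0.54 and 0.43 for TIPARP. Over the 7 members, 1 rose with YFSJ 2.5 mg/mL and 50 µM (0.0633% of all genes), 3 with 2.5 mg/mL and 75 µM (0.994%), 1 with 5 mg/mL and 50 µM (0.532%) and 3 with 5 mg/mL and 75 µM (1.79%), and none fell.

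The combination of YFSJ 5 mg/mL and gefitinib 50 µM holds a library, replicate 3, that lay closer to gefitinib alone than to its own group. The CYP1A1 values were 6.70, 6.74 and 2.72 CPM in that combination, the last in replicate 3, against 1.92, 3.03 and 1.74 CPM with gefitinib 50 µM alone. The other targets had their lowest values in the same library, with 1173, 1261 and 847 CPM of CYP1B1, 77.5, 87.4 and 48.9 CPM of TIPARP, and 60.4, 56.4 and 46.6 CPM of AHRR. Without it, CYP1B1 and TIPARP passed against gefitinib 50 µM alone (log2 fold changes 0.51 and 0.64, adjusted p = 0.000935 and 0.000425). The CYP1A1 call at that dose pair was lost without replicate 1 (adjusted p = 0.0661) or replicate 2 (0.0872) of the combination, and with YFSJ 2.5 mg/mL and 50 µM without replicate 1 (0.0685) or 3 (0.12) of gefitinib 50 µM. In fits of only the 6 libraries compared, CYP1A1 did not pass with YFSJ 5 mg/mL and 50 µM (adjusted p = 0.37), nor did CYP1A1, CYP1B1 or TIPARP with 2.5 mg/mL and 75 µM (0.0788, 0.0788 and 0.0871). The TIPARP call with 2.5 mg/mL and 75 µM was also lost without replicate 2 of that combination (0.0623).

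Adding gefitinib to a preparation was tested against the preparation alone. AHRR rose in all 8 combinations, by 0.40 to 1.16 log2 over CKI alone and by 0.91 to 1.34 over YFSJ alone (largest adjusted p = 0.0134, for CKI 2 mg/mL with 75 µM, and not past the test without replicate 2 (0.0862) or 3 (0.103) of that combination or with the term for ALB libraries (0.187)). CYP1A1 did not rise in any. It was lower with gefitinib 75 µM added to CKI 1 mg/mL (-0.60 ± 0.16, adjusted p = 0.00157) and to CKI 2 mg/mL (-0.54 ± 0.16, adjusted p = 0.0106), and with 50 or 75 µM added to YFSJ 5 mg/mL (-1.07 ± 0.18 and -0.58 ± 0.18, adjusted p = 3.31e-06 and 0.00564). The call with CKI 2 mg/mL was lost without replicate 2 of CKI alone (0.116) or replicate 3 of the combination (0.0728). It was also lost with the term for ALB libraries (0.0655). All libraries of that combination, and none of CKI 2 mg/mL alone, are ALB libraries. CYP1B1 rose when gefitinib was added to YFSJ, by 0.89 and 0.94 at 2.5 mg/mL and by 0.60 and 0.73 at 5 mg/mL (largest adjusted p = 5.28e-06). Over CKI 1 mg/mL it rose with gefitinib 50 µM alone of the 2 doses (0.52 ± 0.10, adjusted p = 8.31e-05), and over CKI 2 mg/mL it fell with 75 µM (-0.69 ± 0.11, adjusted p = 2.88e-06). AHR was higher with gefitinib added in all 4 YFSJ combinations, by 0.28 to 0.38 log2 (largest adjusted p = 0.0486), and each of these calls was lost without replicate 1 of YFSJ alone. The adjusted p was then 0.138 and 0.0656 for 50 and 75 µM over YFSJ 2.5 mg/mL and 0.307 and 0.0968 for the same doses over YFSJ 5 mg/mL.

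For those comparisons, gefitinib 50 µM over CKI 1 mg/mL raised 4 of 7 members (19.2% of all genes). Of these 4 calls, AHR (adjusted p = 0.0324) was lost in 4 of 6 fits that each left out 1 library. The TIPARP call (0.0293) was lost in 3 of 6. Gefitinib 75 µM over CKI 1 mg/mL raised 1 and lowered 2 (23.6% and 24.2%). Over CKI 2 mg/mL, 50 µM raised 1 (6.31%), and 75 µM raised 1 and lowered 2 (15.6% and 14.6%). Over YFSJ 2.5 mg/mL, 50 µM raised 5 (27.1%) and 75 µM raised 6 (25.8%). Over YFSJ 5 mg/mL, 50 µM raised 4 and lowered 1 (26.7% and 26.2%), and 75 µM also raised 4 and lowered 1 (25.9% and 25.4%). ARNT2 rose in 3 of the 4 YFSJ combinations, by 0.88 ± 0.14, 0.76 ± 0.14 and 0.33 ± 0.14 (largest adjusted p = 0.0422, with YFSJ 5 mg/mL and 75 µM, which missed the threshold when any 1 of 4 libraries was left out, at up to 0.177, and with DESeq2, at 0.051).

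Whether a combination departed from its parts was tested with an interaction term, the log2 change with both agents minus the sum of the log2 changes with each. Every interaction that passed was negative, meaning that both agents together gave less than the product of their separate folds. With CKI and gefitinib, 3 of 7 members passed at 1 mg/mL and 50 µM, 4 at 1 mg/mL and 75 µM, 5 at 2 mg/mL and 50 µM, and 6 at 2 mg/mL and 75 µM, against 9.06%, 10.7%, 17.5% and 19.9% of all genes with a negative interaction. With YFSJ and gefitinib the counts were 1 at 2.5 mg/mL and 50 µM, 1 at 2.5 mg/mL and 75 µM, 2 at 5 mg/mL and 50 µM, and 3 at 5 mg/mL and 75 µM, against 0.057%, 0.272%, 0.31% and 0.887%. Averaged over the 4 dose pairs, 6 of 7 passed with CKI (19.5% of all genes) and 3 of 7 with YFSJ (1.05%). The mean interaction with CKI was -1.65 ± 0.11 for CYP1B1 (adjusted p = 3.18e-16), -1.47 ± 0.28 for CYP1A1 (3.66e-05), -1.32 ± 0.17 for ARNT2 (1.23e-08), -0.89 ± 0.14 for AHRR (1.29e-06), -0.48 ± 0.14 for TIPARP (0.00539) and -0.25 ± 0.09 for ARNT (0.029). With YFSJ it was -1.76 ± 0.28 for CYP1A1 (0.000145), -0.78 ± 0.11 for CYP1B1 (2.37e-05) and -0.57 ± 0.14 for AHRR (0.0209).

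Some of these interactions rested on single libraries. The mean interaction of ARNT with CKI did not pass when any 1 of 7 libraries was left out (adjusted p up to 0.092), and that of AHRR with YFSJ when replicate 1 or 2 of untreated cells at 24 h, replicate 2 of gefitinib 50 µM or replicate 1 of YFSJ 5 mg/mL was left out (0.153, 0.051, 0.0614 and 0.0568). AHRR with YFSJ also missed with the term for ALB libraries (0.069). At single dose pairs, the interaction of CYP1A1 with YFSJ 2.5 mg/mL and 75 µM was lost in 8 of 12 fits that each left out 1 library (adjusted p up to 0.124), and that of CYP1B1 with YFSJ 2.5 mg/mL and 50 µM in 11 of 12 (up to 0.115). Both, the only members called at those dose pairs, were also lost with the term for ALB libraries (0.146 for CYP1A1 and 0.7 for CYP1B1). That of AHRR with YFSJ 5 mg/mL and 75 µM was lost in 7 of 12 (up to 0.162), and that of CYP1A1 with CKI 1 mg/mL and 50 µM without replicate 2 of gefitinib 50 µM (0.0771). The interaction of CYP1A1 with YFSJ 5 mg/mL and 50 µM was lost when only the libraries of that contrast were fitted (0.0696).

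**Figure D5:**
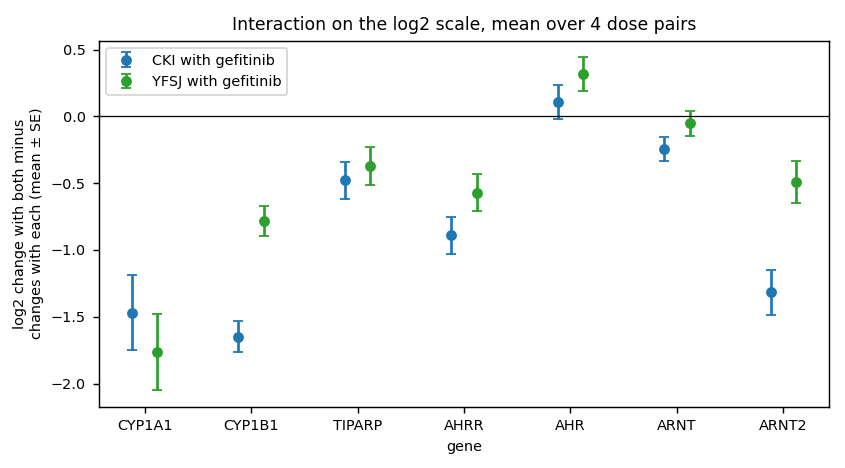
Mean interaction over the 4 dose pairs on the log2 scale (y axis, estimate ± SE) for each of the 7 tested members, with CKI and gefitinib in blue and YFSJ and gefitinib in green. CYP1A1 and CYP1B1 lie below 0 with both preparations, whereas AHR lies at 0.11 with CKI and 0.32 with YFSJ, neither past the test.

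The interaction depends on the scale, so the combinations were also set beside the sum of the separate CPM changes, with an SE from the spread of the 4 groups involved. TIPARP was within 2 SE of that sum in all 8 combinations. With CKI 1 mg/mL and gefitinib 50 µM, for example, it averaged 116 CPM, where the sum of the changes gave 109 CPM. CYP1A1 lay below the sum in all 8 and by more than 2 SE in 6. With CKI 1 mg/mL and gefitinib 75 µM it averaged 18.5 CPM, where the sum gave 29.3 CPM and the product of the folds gave 63.0 CPM. CYP1B1 fell short by more than 2 SE in 4 combinations, the ones with CKI. In CKI 2 mg/mL with gefitinib 75 µM it averaged 317 CPM, where the sum gave 1031 CPM. With YFSJ, CYP1B1 stayed within 2 SE of the sum, as in YFSJ 5 mg/mL with gefitinib 75 µM, where it averaged 1197 CPM and the sum gave 1242 CPM. AHRR fell short by more than 2 SE in 3 combinations and ARNT2 in 6, and AHR exceeded the sum by more than 2 SE in 2.

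Ranked over the 16 groups, the members fell into different orders. CYP1A1 was highest in CKI 1 mg/mL (28.0 ± 1.13 CPM) and CKI 1 mg/mL with gefitinib 50 µM (26.8 ± 2.21 CPM), whose libraries overlapped, and both stood clear of the next group, CKI 2 mg/mL (18.6 ± 3.66 CPM). The 6 groups with CKI took the first 6 places, the 6 with YFSJ the next 6, with overlap between the libraries of CKI 2 mg/mL with gefitinib 75 µM and those of YFSJ 5 mg/mL, and gefitinib alone and untreated cells came last. TIPARP was highest in the 3 groups with CKI 2 mg/mL, whose libraries overlapped (142 ± 22.6, 140 ± 10.7 and 133 ± 10.6 CPM, as CKI alone, with gefitinib 50 µM and with 75 µM). CYP1B1 was highest in all 4 combinations of YFSJ and in CKI 1 mg/mL with gefitinib 50 µM, and those 5 groups overlapped in turn. AHRR was highest in those same 5 groups, led by YFSJ 2.5 mg/mL with gefitinib 50 µM (63.0 ± 9.07 CPM). In none of the 5 did AHRR pass against gefitinib alone at the same dose (edgeR, smallest adjusted p = 0.126, for CKI 1 mg/mL with gefitinib 50 µM). That comparison passed with library size scaling (0.0109) and without replicate 2 of gefitinib 50 µM (0.0367). As a description over the 16 group means of log2 CPM, Pearson's r was 0.85 between CYP1A1 and TIPARP, 0.85 between CYP1B1 and AHRR, 0.75 between CYP1B1 and ARNT2, and 0.32 between CYP1A1 and CYP1B1. The groups share agents and reference libraries, so these are not independent points.

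Genes whose group means followed CYP1A1 most closely, among 11879 genes, were TRIM16 (r = 0.918), a tripartite motif protein, SSH1 (0.914), a cofilin phosphatase, AKR1C1 (0.901), an aldo-keto reductase, MBP (0.897), best known as a myelin protein, and TRIM16L (0.896). TRIM16 and TRIM16L are near relatives that the counting could mix. For TIPARP they were BMP2 (r = 0.964), a secreted growth factor, USP31 (0.944), a ubiquitin protease, TMEM45B (0.934), a membrane protein, TMCC3 (0.931) and SSH1 (0.926). BMP2 averaged between 22.0 CPM in untreated cells at 24 h and 101 CPM in CKI 2 mg/mL with gefitinib 75 µM. These values describe 16 groups and carry no test.

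Other genes of the pathway were read from lists by role. HSP90AA1 and HSP90AB1, which encode the chaperone HSP90, fell, with log2 fold changes of -1.11 ± 0.12 and -0.68 ± 0.07 with gefitinib 75 µM (adjusted p = 2.74e-10 and 1.88e-11) and -0.75 ± 0.12 and -0.58 ± 0.07 with CKI 2 mg/mL (2.2e-06 and 2.38e-09). With YFSJ 5 mg/mL they had -0.11 ± 0.12 and 0.03 ± 0.07, neither past the test (adjusted p = 0.675 and 0.85). Of 10 tested genes among 12 other AHR targets, 5 rose and none fell with YFSJ 5 mg/mL, where 4.28% of all genes rose and 2.2% fell. With CKI 2 mg/mL 4 rose and 1 fell, against 24.1% and 27.1% of all genes. With gefitinib 75 µM 2 rose and 2 fell, against 27.6% and 27.1%, which is near the share over all genes. Their median log2 fold changes with YFSJ, CKI and gefitinib were 0.71, 0.28 and 0.07, beside -0.01, -0.01 and 0.02 over all genes. The 10 include CYP1A2, which reached at most 17 counts in any library and passed in none of these comparisons. STC2, which encodes the secreted glycoprotein stanniocalcin, and SLC7A5, an amino acid transporter, were the 2 called genes with the smallest p in all 3. STC2 rose by 2.08 ± 0.11 with gefitinib 75 µM, 1.60 ± 0.10 with CKI 2 mg/mL and 1.28 ± 0.10 with YFSJ 5 mg/mL, and SLC7A5 by 1.43 ± 0.13, 0.87 ± 0.13 and 0.91 ± 0.13 (largest adjusted p = 7.37e-06). Both genes are also known targets of the stress factor ATF4. The listed targets that fell with gefitinib 75 µM were NQO1 (-0.47 ± 0.09, adjusted p = 1.03e-05) and EREG (-0.79 ± 0.20, 0.00105). SERPINB2 was the one that fell with CKI 2 mg/mL (-1.68 ± 0.41, 0.000782).

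A list of enzymes of tryptophan and kynurenine metabolism had 5 tested genes of 9. Kynurenine is a metabolite that can bind AHR, and the list holds enzymes that make it and enzymes that consume it. Of these, 3 rose with CKI 2 mg/mL, 2 with YFSJ 5 mg/mL and 1 with gefitinib 75 µM, and none fell, where 24.1%, 4.28% and 27.6% of all genes rose. Their median log2 fold changes were 0.26, 0.24 and 0.66. TDO2, the tryptophan dioxygenase, rose by 3.22 ± 0.50 with CKI 2 mg/mL (adjusted p = 5.9e-07) and by 1.98 ± 0.57 with YFSJ 5 mg/mL (0.0255). KYNU, kynureninase, which consumes kynurenine, rose by 0.34 ± 0.13, 0.56 ± 0.13 and 0.78 ± 0.13 with CKI 2 mg/mL, YFSJ 5 mg/mL and gefitinib 75 µM (largest adjusted p = 0.029). Among 8 tested genes of 12 bHLH-PAS relatives of AHR, 3 rose and 1 fell with CKI 2 mg/mL, 1 rose with YFSJ 5 mg/mL, and 4 rose and 3 fell with gefitinib 75 µM. The shares over all genes were 24.1% higher and 27.1% lower with CKI, 4.28% higher with YFSJ, and 27.6% higher and 27.1% lower with gefitinib, and the medians of the 8 were 0.31, -0.01 and 0.32 on the log2 scale. NPAS2, a clock factor, rose by 1.71 ± 0.13, 0.57 ± 0.14 and 1.19 ± 0.14 with CKI, YFSJ and gefitinib at these doses (largest adjusted p = 0.00855). ARNTL, its clock partner, rose by 0.81 ± 0.11 with CKI 2 mg/mL (3.77e-08), and EPAS1, a hypoxia factor that also pairs with ARNT, rose by 1.30 ± 0.10 with gefitinib 75 µM (1.33e-15). The relatives that fell with gefitinib 75 µM were ARNTL2 (-0.65 ± 0.13, adjusted p = 6.52e-05), CLOCK (-0.47 ± 0.13, 0.00194) and HIF1A (-0.51 ± 0.15, 0.00478). With CKI 2 mg/mL the one that fell was ARNTL2 (-0.43 ± 0.13, 0.00586). The mean interaction of CKI with gefitinib was negative for STC2, SLC7A5, KYNU, EPAS1 and NPAS2 (-1.73, -1.22, -0.93, -1.08 and -0.82) and positive for HSP90AB1 and HSP90AA1 (0.42 and 0.64), with a largest adjusted p of 7.56e-05.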

How the data were processed

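RNA of H1975 cells, a human lung cancer line, was sequenced as unstranded paired-end libraries, and the deposited values are raw counts per gene symbol made by the authors. The submitters' processing notes name Trim Galore 0.4.2, STAR 2.5.3a, edgeR and the build hg19. How reads were counted, and with which annotation and strand setting, is not given in the sources used here. All 48 columns matched a sample by name. Beside the name H1975, the labels give a catalogue number of another line.

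The analysis used edgeR 4.0.16 in R 4.3.3. The filter filterByExpr (minimum count 10, minimum total 15) left 15789 genes. A robust quasi-likelihood model with TMM factors fitted all 48 libraries together, each group having 1 mean (32 residual degrees of freedom), and 44 two-sided contrasts were drawn from it. P-values were adjusted over every gene tested (Benjamini-Hochberg), and a gene is called at an adjusted p under 0.05. An SE is the absolute log2 fold change over the square root of F. CPM are counts scaled by library total and TMM factor. DESeq2 1.42.0 was an alternative. The fit was checked on simulated counts with known changes. Replicates were compared in pairs over all genes, with chi-square values of 3.63 to 65.1 per gene, so none was counted as a duplicate.

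The members and lists were chosen with earlier results of these data known. Of each other list, at most the 2 called genes with the smallest p were named in CKI 2 mg/mL, YFSJ 5 mg/mL and gefitinib 75 µM against untreated cells and in the mean CKI interaction. For the other AHR targets and the bHLH-PAS relatives, the called genes that fell against untreated cells were named as well. Genes like CYP1A1 and TIPARP were the 5 with the highest correlation over group means, among genes with a highest group mean of at least 5 CPM. ALDH3A1 failed the filter and was not tested. The counts over the list of chaperone genes are not reported here. Transcript lengths come from GENCODE v29 on GRCh38.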

Additional observations from a re-analysis of the deposited data

Results flagged for a closer look

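The effect of gefitinib differed with and without a preparation, by a tested interaction term (log2, edgeR, adjusted p under 0.05), in 34 values. All 34 were negative. For CYP1A1 with CKI they were -1.23 at 1 mg/mL and gefitinib 50 µM, -1.73 at 1 mg/mL and 75 µM, -1.24 at 2 mg/mL and 50 µM, and -1.67 at 2 mg/mL and 75 µM, with a mean of -1.47. For CYP1A1 with YFSJ they were -1.53 at 2.5 mg/mL and 75 µM, -2.24 at 5 mg/mL and 50 µM, and -1.71 at 5 mg/mL and 75 µM, and the mean over all 4 dose pairs was -1.76. The value at 5 mg/mL and 50 µM, and so the mean, includes replicate 3 of that combination, which lay nearest to gefitinib 50 µM alone.

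CYP1B1 with CKI had values of -1.10, -1.53, -1.75 and -2.21 in the same order of dose pairs, with a mean of -1.65. CYP1B1 with YFSJ had -0.74 at 2.5 mg/mL and 50 µM, -1.03 at 5 mg/mL and 50 µM, and -0.79 at 5 mg/mL and 75 µM (mean of 4 pairs -0.78). AHRR had -0.73, -1.10 and -1.26 with CKI, at 1 mg/mL with 75 µM and at 2 mg/mL with 50 and 75 µM, and a mean of -0.89. AHRR with YFSJ had -0.70 at 5 mg/mL and 75 µM and a mean of -0.57. TIPARP had -0.61 with CKI 2 mg/mL at both gefitinib doses and a mean of -0.48. ARNT had -0.42 with CKI 2 mg/mL and 75 µM and a mean of -0.25. ARNT2 had -0.95, -1.93, -0.87 and -1.53 with CKI in the order of dose pairs above, and a mean of -1.32. Of these, the values at CKI 2 mg/mL with 75 µM and at YFSJ 2.5 mg/mL rest on groups made up of libraries with over 1000 ALB counts. In CKI 1 mg/mL with 75 µM and in CKI 2 mg/mL with 50 µM, 2 of the 3 libraries of the combination were of that kind. The means with CKI and with YFSJ draw on such libraries too.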

How the results depend on the processing

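Of 5173 alternative values over 58 settings, none that passed in either fit changed sign, 148 lost their call and 66 gained one; 132 that passed in neither fit changed sign. The 55 calls of CYP1A1, CYP1B1, TIPARP and AHRR against untreated cells at 24 h lost 2 of 818 alternative values, both with YFSJ 2.5 mg/mL and the term for ALB libraries. Library size scaling shifted the median of all genes by over 0.1 log2 in 18 of 44 comparisons (between -0.15 and 0.23). The count of member calls for untreated cells at 24 h against 0 h was 2 in place of 1 with library size scaling, 1 higher and 1 lower, AHRR being the second. Calls for YFSJ combinations against gefitinib alone were 5 in place of 8 when only the libraries compared were fitted, 4 of them shared with the 8. Calls for CKI combinations against CKI alone were 7 in place of 11 at adjusted p under 0.01.

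Leaving out each library in turn moved the counts to 1 to 2 (time), 11 to 12 (gefitinib alone, of 12), 11 to 12 (CKI alone, of 12), 9 to 10 (YFSJ alone, of 9), 42 to 44 (combinations against untreated, of 43), 17 to 20 (CKI combinations against gefitinib, of 18), 7 to 12 (YFSJ combinations against gefitinib, of 8), 9 to 11 (CKI combinations against CKI, of 11), 17 to 23 (YFSJ combinations against YFSJ, of 21), 4 to 5 (dose, of 5) and 29 to 39 (interaction, of 34).

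Replicate numbers did not pair the libraries: over 360 pairs of same-numbered libraries the correlation of deviations had a median of -0.01, and 56 exceeded 0.1. With a replicate block 173 of 174 calls were kept, and AHR in YFSJ 5 mg/mL with gefitinib 50 µM against YFSJ alone was lost (adjusted p = 0.0556). Leaving out the libraries with over 1000 ALB counts, chosen after seeing the data, kept 120 of 130 calls in the comparisons it left. Depth limits CYP1A1 in untreated cells and ALDH3A1 throughout.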
